A study of Mus musculus with 17 samples.

Results

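Cyp1b1 and the aryl hydrocarbon receptor pathway were examined in cultured mouse ovarian follicles with and without an inhibitor of the EGF receptor kinase. The members were 6 genes picked by symbol, Cyp1b1, Cyp1a1, Ahr, Arnt, Ahrr and Tiparp, out of 25198 genes in the count table. Cyp1b1 was singled out because it was higher in the inhibitor libraries, so its values in that contrast, and those of the other members, are given as a description with no test. The log2 ratios below are log2 fold changes of Tyrphostin over Control. A filter on low counts was passed by 4 members (Cyp1b1, Ahr, Arnt and Tiparp) and not by 2 (Cyp1a1 and Ahrr), with 9603 genes passing in all.

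The RNA-seq libraries were made from follicles of CD1 mice aged 16 days that had been grown encapsulated in vitro (eIVFG) for 8 days, and each held the RNA of 3 antral follicles. There were 11 Control libraries (6 of batch 1, 5 of batch 2) and 6 Tyrphostin libraries (3 of each batch). The treated follicles had 10 µM Tyrphostin-AG1478, an inhibitor of the EGF receptor kinase, in DMSO for 4 h together with hCG, the gonadotropin that starts the ovulatory response in culture. The treatment text is the same for every library, so whether Control follicles received hCG and DMSO is not stated. No genetic change is named for either group. Nothing in the labels says that libraries came from separate animals or cultures, so the p-values below measure only the spread between these libraries, which may be technical.

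The aryl hydrocarbon receptor, encoded by Ahr, is a transcription factor of the bHLH-PAS family that waits in the cytoplasm with HSP90 and other chaperones. On binding a ligand such as dioxin or a tryptophan product, it moves to the nucleus, pairs with ARNT and binds dioxin response elements in DNA. Its best known targets are the cytochrome P450 genes Cyp1a1 and Cyp1b1, and Ahrr and Tiparp, whose products restrain the receptor in turn. CYP1B1 hydroxylates estradiol to a catechol estrogen and also acts on retinoids and polycyclic hydrocarbons. In the ovary the receptor is known for roles in follicle growth and in the loss of oocytes after exposure to such hydrocarbons.

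The promoters of 3 of the targets are shown because these genes are textbook responders to the same receptor, yet differed widely in level. Each window runs from 250 bases before to 50 bases after the RefSeq start site on build GRCm38.p6, printed 5′ to 3′ on the strand of the gene. Capitals mark the core of the dioxin response element, GCGTG, on either strand, so that CACGC is its reverse complement.
Cyp1b1, chr17:79715012-79715311, minus strand: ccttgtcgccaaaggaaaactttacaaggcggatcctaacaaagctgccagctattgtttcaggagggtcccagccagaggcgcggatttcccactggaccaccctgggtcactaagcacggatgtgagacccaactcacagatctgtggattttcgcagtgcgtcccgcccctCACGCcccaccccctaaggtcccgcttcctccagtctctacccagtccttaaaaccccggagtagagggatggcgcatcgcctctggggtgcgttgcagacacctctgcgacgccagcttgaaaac
Cyp1a1, chr9:57697363-57697662, plus strand: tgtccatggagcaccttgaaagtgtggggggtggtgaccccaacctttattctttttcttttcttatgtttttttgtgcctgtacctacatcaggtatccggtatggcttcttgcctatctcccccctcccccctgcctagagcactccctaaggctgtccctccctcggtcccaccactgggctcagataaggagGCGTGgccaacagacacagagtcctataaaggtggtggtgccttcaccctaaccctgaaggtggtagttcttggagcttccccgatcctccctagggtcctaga
Tiparp, chr3:65528197-65528496, plus strand: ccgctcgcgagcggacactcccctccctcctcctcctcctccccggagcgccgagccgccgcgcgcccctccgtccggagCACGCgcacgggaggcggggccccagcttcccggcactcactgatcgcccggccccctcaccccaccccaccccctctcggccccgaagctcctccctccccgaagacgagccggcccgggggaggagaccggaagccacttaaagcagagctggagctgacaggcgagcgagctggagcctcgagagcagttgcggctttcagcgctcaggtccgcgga

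In the GENCODE M21 annotation of GRCm38 all 6 members are protein-coding genes. Cyp1b1 spans chr17:79701537-79715061, Cyp1a1 chr9:57687928-57703824, Ahr chr12:35497974-35535038, Arnt chr3:95434388-95497240, Ahrr chr13:74211118-74292331 and Tiparp chr3:65528410-65555518. The set of RefSeq promoters used here held a window for 5 of the 6 members, and Ahr had no entry in it. The Cyp1b1 window held 1 core, on the reverse strand 76 bases before the start. Cyp1a1 had 1 core 54 bases before the start, and Tiparp 1 core 170 bases before it. Arnt also had 1, while Ahrr had 3. Of 32807 promoter windows of this length, 32.4% held at least 1 core and 3.91% held 3 or more. The longer form TNGCGTG, which contains the core, was in 5.06% of all windows and, of the 5 member windows, only in that of Ahrr. The main dioxin response elements of Cyp1a1 are known to lie farther upstream than this window reaches. A match is a run of letters, and binding was not measured here.

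Libraries held between 1820545 and 8291024 counts, and a floor of 3 counts corresponded to between 0.336 and 1.64 CPM (counts scaled to library size, here with TMM factors) across them. This floor covers counting error only, because PCR copies without molecular identifiers are not independent molecules. Among granulosa markers Inha was abundant, at 34000 to 52700 CPM over all libraries, whereas Foxl2 and Amh, at no more than 30 and 4 counts in a library, were below the filter. Of the 3 granulosa markers tested, 2 were higher with Tyrphostin, where 4.35% of all genes were. These were Nr5a2, a nuclear receptor, by a log2 ratio of 2.18 ± 0.16 (SE; adjusted p by edgeR = 8.38e-09), and Fshr, described below. Inha had a log2 ratio of -0.05 ± 0.15 (SE). Markers of other cell types were present too, and 3 libraries stood apart: Control 7, Control 8 and Tyrphostin 5 had the highest summed theca markers (940, 945 and 890 CPM) and the highest summed stroma markers (1800, 1460 and 2640 CPM). Cyp1b1 is given with and without them. Pathway genes are noted where leaving 1 of them out changed a call between Tyrphostin and Control.

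Cyp1b1 was higher in the Tyrphostin libraries. In batch 1, Cyp1b1 stood at 11.6, 9.79, 5.08, 14.5, 16.1 and 8.76 CPM in Control 1 to 6, and at 26.5, 30.3 and 12.7 CPM in Tyrphostin 1, 2 and 3. In batch 2 it stood at 47.8, 20.6, 5.21, 15.7 and 7.9 CPM in Control 7 to 11, and at 73.1, 111 and 58.2 CPM in Tyrphostin 4, 5 and 6. All 6 Tyrphostin libraries lay above the Control median of 11.6 CPM, 3 of them above every Control library. Within batches, 3 of 3 Tyrphostin libraries of batch 2 exceeded every Control library, as did 2 of 3 in batch 1, where Tyrphostin 3 fell inside the Control range. The share of all genes with such counts was not taken, so nothing is read from them. Cyp1b1 averaged 14.8 CPM ± 12 (SD, n = 11) over the Control group, and over the Tyrphostin group 52 CPM ± 36.4 (SD, n = 6).

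With batch as a term, the Cyp1b1 log2 fold change between Tyrphostin and Control was 1.58 ± 0.36 (SE), a fold of 2.99, and it ranked as number 34 of 9603 genes from the highest. Of the 4 members that passed the filter, 1, Cyp1b1, passed edgeR's quasi-likelihood test (threshold 0.05 after adjustment), against 10.6% of all genes tested. Within batch 1 alone (adjusted p by edgeR = 0.0533) and batch 2 alone (0.148), with fewer libraries each, Cyp1b1 did not pass. Since this contrast led to the choice of the members, nothing is read from these calls or their count. The log2 fold change without Control 7 was 1.86, without Tyrphostin 5 it was 1.39, and without Control 7, Control 8 and Tyrphostin 5 together it was 1.74 ± 0.34 (SE).

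**Figure D1:**
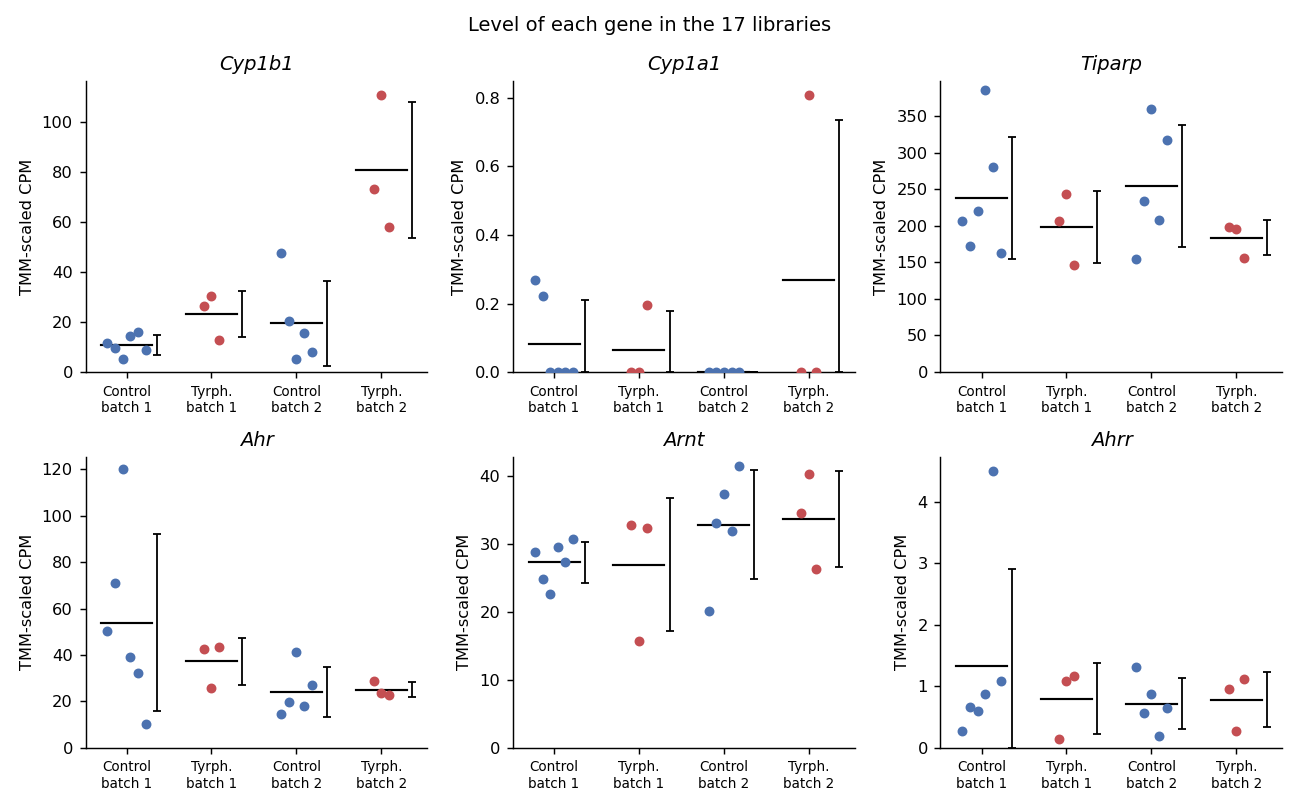
TMM-scaled CPM of the 6 genes in each of the 17 libraries, by group and batch; points are libraries, horizontal lines means and error bars ± 1 SD (cut at 0 where the SD exceeds the mean). The 3 Tyrphostin libraries of batch 2 lie between 58.2 and 111 CPM of Cyp1b1, above the Control libraries of that batch, while the groups overlap for Ahr, Arnt and Tiparp.

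The library names carry a number (Ctrl4 and Tyrp_4, for example) whose meaning the labels do not give. The 11 Control libraries shared 5 such numbers, and the main fits took each library as a separate one. Side by side, the Cyp1b1 level in the Tyrphostin library was 3.01 times the Control mean for number 1, 2.31 times for number 2, 2.14 times for number 4, 21.3 times for number 5 and 4.93 times for number 6. Number 4 was the highest in Control, with 47.8 and 20.6 CPM. Number 5 had a single Control library, at 5.21 CPM, and number 3 had none. Cyp1b1 was higher in the Tyrphostin library for each of the 5 numbers that could be compared, by ratios that spread widely. Nothing is read from this, since the gene was chosen on these values and the numbers were not taken as pairs.

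Whether the treatment effect on Cyp1b1 differed between batches was tested as an interaction. The log2 fold change was 1.08 ± 0.32 (SE) within batch 1 and 2.05 ± 0.55 (SE) within batch 2, and the difference between them was 0.97 ± 0.72 (SE; adjusted p by edgeR = 1, unadjusted p = 0.196). No difference between batches was detected, though the standard error leaves room for a large one. Without Control 7, the highest Control library, the interaction grew to 1.57 ± 0.56 (SE; adjusted p by edgeR = 0.945, unadjusted p = 0.0113). Over all genes, 0% passed the interaction test in edgeR after adjustment (0 genes, and 0 in DESeq2), and 342, or 3.56%, had an unadjusted p below 0.05. For Ahr, Arnt and Tiparp the interaction was 0.62 ± 0.69, 0.05 ± 0.36 and -0.21 ± 0.42 (SE), each with an adjusted p by edgeR of 1.

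CYP1B1 is known in connective tissue and vessel wall cells as well as in steroid-producing cells, so its level was set beside markers of those cells. None of the 6 stroma and fibroblast markers (Col1a1, Col1a2, Col3a1, Dcn, Lum and Pdgfra) was at 0 or passed the test between groups. Their summed level ran from 182 to 1800 CPM in Control, with a median of 414, and from 153 to 2640 CPM in Tyrphostin libraries, with a median of 395. In bulk samples, fewer cells of a type and less RNA per cell cannot be told apart. In batch 1 the sum was 182 to 703 CPM in Control and 153 to 219 CPM in Tyrphostin libraries, while Cyp1b1 ran from 5.08 to 16.1 CPM in Control and from 12.7 to 30.3 CPM in Tyrphostin. In batch 2 the stroma sum was 350 to 1800 CPM in Control and 572 to 2640 CPM in Tyrphostin libraries.

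Libraries rich in stroma marker RNA included those richest in Cyp1b1. Control 7 had the highest stroma sum and the highest Cyp1b1 level among Control libraries, as did Tyrphostin 5 among Tyrphostin libraries, although Tyrphostin 4 held more Cyp1b1 than Tyrphostin 6 with a lower stroma sum. Per 1000 CPM of stroma markers, Cyp1b1 ran from 14.1 to 35 CPM in Control, with a median of 22.3, and from 42 to 174 CPM in Tyrphostin libraries, with a median of 94.7. On that ratio, chosen after the values were seen, the groups did not overlap. The groups did not overlap on it for 2 of 9603 genes, or 0.0208%, and nothing is read from that share, since the gene and the ratio were chosen on these values. The other gene was Inhbb, which encodes the inhibin beta B subunit, at 0.401 to 26.3 CPM per 1000 in Control and 34.8 to 525 in Tyrphostin libraries. With the log2 stroma sum as a covariate beside batch, a fit added after the data were seen, the Cyp1b1 log2 fold change was 2.01 ± 0.24 (SE).

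**Figure D2:**
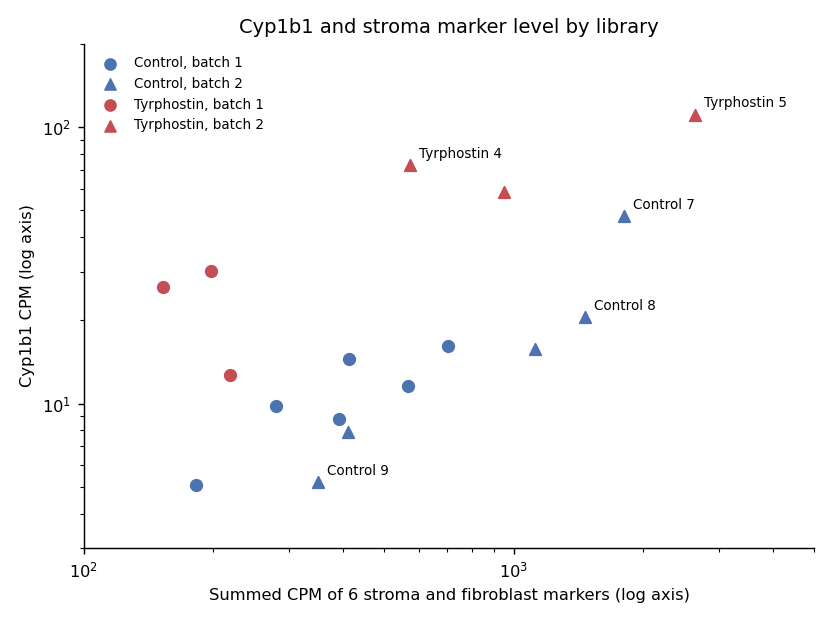
Cyp1b1 CPM (vertical log axis) against the summed CPM of 6 stroma and fibroblast markers (horizontal log axis) in each of the 17 libraries, colored by group and shaped by batch. Control 7 and Tyrphostin 5 are at the upper right of their groups. Tyrphostin libraries held 42 to 174 CPM of Cyp1b1 per 1000 CPM of markers, against 14.1 to 35 in Control libraries. The stroma sums of Tyrphostin 1 (153 CPM) and Tyrphostin 5 (2640 CPM) lie outside the Control range of 182 to 1800 CPM.

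The same sums were taken for the other cell types. The 4 theca markers, among them Cyp17a1 of androgen synthesis and Aldh1a1, summed to between 54.2 and 945 CPM in Control and between 121 and 890 CPM in Tyrphostin libraries, with medians of 146 and 277. None of the 3 tested passed, and with their log2 sum as a covariate the Cyp1b1 log2 fold change was 1.36 ± 0.35 (SE). The 5 smooth muscle and pericyte markers summed to 9.18 to 72.5 CPM in Control and 13.5 to 60.4 CPM in Tyrphostin libraries. The 4 endothelial markers summed to 8.33 to 87.9 and 8.77 to 31.9 CPM, the 4 immune markers to 11.6 to 26.1 and 11.5 to 35.8 CPM, and the 5 oocyte markers to 12.5 to 63.5 and 12.1 to 94 CPM. The part of these cell types in the Cyp1b1 result was not tested.

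Cyp1a1, the classic sentinel of receptor activation and a P450 of the same family as Cyp1b1, was close to undetected. It had no count in 9 of 11 Control libraries and in 4 of 6 Tyrphostin libraries. The 4 libraries with any had 1 count each in Control 1, Control 2 and Tyrphostin 3, and 3 counts in Tyrphostin 5. Every library was at or under the floor of 3 counts, so no fold is given and no change was detectable at this depth. The Control libraries of batch 2 held 0 counts of Cyp1a1 in all.

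Ahrr, the repressor that competes with the receptor for ARNT, was also rare. In Control libraries it ran from 1 to 16 counts, or 0.192 to 4.51 CPM with a median of 0.667. In Tyrphostin libraries it ran from 1 to 7 counts, or 0.143 to 1.17 CPM with a median of 1.02. The means were 1.05 CPM ± 1.19 (SD, n = 11) and 0.792 CPM ± 0.46 (SD, n = 6). The groups overlapped, and the gene did not pass the filter on low counts.

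Tiparp encodes a mono-ADP-ribosyltransferase that the receptor induces and that modifies the receptor. It was the most abundant member, at 154 to 386 CPM in Control with a median of 220, and at 146 to 243 CPM in Tyrphostin libraries with a median of 198. Only Tyrphostin 3 lay below every Control library and no Tyrphostin library lay above them. The log2 ratio was -0.36 ± 0.21 (SE), the opposite sign to Cyp1b1, with -0.26 ± 0.28 in batch 1 and -0.47 ± 0.3 in batch 2 (SE). The log2 ratio was negative in all 17 fits without 1 library, from -0.45 to -0.27. It was also negative in all 16 other alternatives run, from -0.47 to -0.03. These fits share libraries, so they give no separate support for the sign.

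Ahr itself varied more among Control libraries than between the groups. In batch 1 it stood at 50.4, 71.2 and 120 CPM in Control 1, 2 and 3 and at 39.2, 32.2 and 10.4 CPM in Control 4, 5 and 6. In batch 2 the Control libraries held 14.4 to 41.3 CPM. Tyrphostin libraries were narrower, from 22.8 to 43.5 CPM, and none lay outside the Control range. The Control spread was 11.6-fold from lowest to highest, against 1.91-fold in Tyrphostin libraries. The log2 fold change for treatment was -0.25 ± 0.35 (SE), with -0.54 ± 0.55 for batch 1 alone and 0.07 ± 0.32 for batch 2 alone. Leaving out Control 3, the highest library, brought it to -0.04.

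Arnt, the partner with which the receptor binds DNA, had the narrowest range among Control libraries, 2.06-fold from lowest to highest, but spanned 2.58-fold in Tyrphostin libraries, where Tiparp spanned 1.67-fold. It ran from 20.2 to 41.6 CPM in Control with a median of 29.6 and from 15.7 to 40.4 CPM in Tyrphostin libraries with a median of 32.6. The means were 29.9 CPM ± 6.22 (SD, n = 11) and 30.4 CPM ± 8.5 (SD, n = 6). Its log2 fold change of 0.01 ± 0.18 (SE) took either sign under the alternatives, from -0.11 to 0.15.

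Compared per kilobase of annotated exon, the members kept the same broad order in both groups except for Cyp1b1. In Control libraries Tiparp was highest at 56.3 CPM per kb ± 18.3 (SD, n = 11), then Ahr at 6.55 ± 5.18, Arnt at 3.73 ± 0.777, Cyp1b1 at 2.54 ± 2.05, Ahrr at 0.112 ± 0.126 and Cyp1a1 at 0.016 ± 0.0359. The ranges of Ahr, Arnt and Cyp1b1 overlapped there, while the lowest Tiparp library, at 35.2, was above the highest Ahr library, at 19.5. In Tyrphostin libraries the levels were 43.8 CPM per kb ± 8.11 (SD, n = 6) for Tiparp, 8.9 ± 6.24 for Cyp1b1, 5.04 ± 1.53 for Ahr and 3.79 ± 1.06 for Arnt. Cyp1b1 was thus below Ahr and Arnt on average in Control and above both in Tyrphostin libraries. Its range there, 2.17 to 19, took in that of Ahr. The order over Ahr held in batch 2 only, with Tyrphostin means of 13.8 for Cyp1b1 and 4.05 for Ahr. In batch 1 the Tyrphostin means were 3.97 for Cyp1b1 and 6.04 for Ahr.

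Control libraries of the 2 batches gave a comparison that did not enter the choice of the members. Of 6680 genes tested, 14.0% passed in edgeR after adjustment, and of the 4 members tested none did, while 1 (Ahr) had an unadjusted p below 0.05, as did 28.9% of all genes. Ahr was lower in batch 2 by a log2 difference of -1.17 ± 0.47 (SE; adjusted p by edgeR = 0.112, unadjusted p = 0.0255), and it passed the threshold without Control 6 (-1.38) or Control 9 (-1.43), but fell to -0.76 without Control 3. Cyp1b1 differed by 0.84 ± 0.45 (SE; adjusted p by edgeR = 0.23), a value that rested on Control 7, without which it was 0.28. For Arnt the difference was 0.3 ± 0.2 (SE; adjusted p by edgeR = 0.334) and for Tiparp 0.13 ± 0.26 (SE; adjusted p by edgeR = 0.798).

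The other genes of the pathway were taken from 5 lists with 43 genes, of which 29 passed the filter. In the contrast of Tyrphostin with Control, 4 of the 29 were higher and 4 lower by edgeR's quasi-likelihood test (adjusted p under 0.05), where 4.35% of all genes were higher and 6.25% lower. The median log2 fold change of the 29 was -0.03, against 0 for all genes. In either direction 10.6% of all genes passed, which is the share beside the count of each list below. The lists were drawn up with earlier results of these data known, so nothing is read from their counts.

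Proteins that hold the receptor in the cytoplasm or mark it for destruction showed no call: 0 of 6 passed in edgeR, whether or not the p was adjusted, nor in DESeq2 or limma-voom after adjustment, with a median log2 fold change of -0.02. The chaperone genes Hsp90ab1 and Hsp90aa1 differed by -0.32 ± 0.17 and -0.01 ± 0.16 (SE) on the log2 scale. Ddb1, part of a ubiquitin ligase, had 0.38 ± 0.31 (SE), but 0.77 without Control 7, where it passed (adjusted p by edgeR = 0.0123).

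Of 13 other bHLH-PAS genes, 5 were tested and 1, Hif1a, was lower. Hif1a, the oxygen-regulated partner of ARNT, fell from 711 to 2010 CPM in Control (median 984) to 421 to 679 CPM in Tyrphostin libraries (median 571). All 6 Tyrphostin libraries were below every Control library, which held for 1.51% of genes in either direction. Its log2 ratio was -0.98 ± 0.17 (SE; adjusted p by edgeR = 0.000563). Epas1, which encodes HIF2A, had -0.05 ± 0.23, and the clock genes Clock and Arntl had -0.31 ± 0.25 and -0.03 ± 0.15 (SE).

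Among 10 other targets of the receptor, 5 were tested and 1, Serpinb2, passed in edgeR. Serpinb2, a plasminogen activator inhibitor that dioxin induces in other cells, fell from a Control median of 143 CPM (46.9 to 522) to a Tyrphostin median of 30.6 CPM (13.7 to 110). The log2 ratio was -2.73 ± 0.49 (SE; adjusted p by edgeR = 0.0015), with no Control library reached by 5 of the 6 Tyrphostin libraries. Cyp2s1, another inducible P450, had 1.09 ± 0.4 (SE; adjusted p by edgeR = 0.082). At a low level, 1.37 to 9.97 CPM against 0 to 3.77 CPM, 4 of 6 Tyrphostin libraries lay above every Control library. The share of all genes with as many libraries outside the Control range was not taken, here or for Serpinb2. Nothing is read from these counts of libraries. Cyp2s1 passed in DESeq2 (adjusted p = 0.0361) and, in edgeR, with total-count scaling (0.0472), with the stroma sum as a covariate (0.0056), and without Control 1 (0.0447) or Tyrphostin 3 (0.0423). Nfe2l2, the regulator of antioxidant genes, had -0.02 ± 0.2 and Xdh 0.73 ± 0.38 (SE), or 0.32 without Tyrphostin 5. Cyp1a2, Nqo1, Aldh3a1, Ugt1a6a and Gsta1 were under the filter, with at most 12 counts in any library.

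Of 4 genes reported to depend on the receptor in ovarian cells, 3 were tested and 2 were higher, where 4.35% of all genes were. Cyp19a1, the aromatase that makes estradiol, the substrate of CYP1B1, rose from a Control median of 155 CPM (60 to 285) to 792 CPM (536 to 947), a log2 ratio of 2.35 ± 0.22 (SE; adjusted p by edgeR = 2.84e-07), and its rise was known when the list was drawn up. Fshr, the FSH receptor, went from a median of 8.12 CPM to 15.1 CPM, a log2 ratio of 0.83 ± 0.25 (SE; adjusted p by edgeR = 0.0344). The Fshr call was lost without Control 1, 3 or 10 (adjusted p = 0.0539, 0.0559 and 0.0533) and without Tyrphostin 1, 5 or 6 (0.187, 0.0529 and 0.101), and with no batch term (0.0645), all in edgeR. Bax, the death effector through which the receptor acts in oocytes, had 0.39 ± 0.22 (SE; adjusted p by edgeR = 0.299).

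The last list held genes that serve P450 enzymes or dispose of catechol estrogens. By the edgeR test 4 of 10 passed, 2 in each direction, where 10.6% of all genes did. Alas1, the rate-limiting enzyme of heme synthesis, rose from a Control median of 56.2 CPM (38.5 to 296) to 252 CPM (93.8 to 778), a log2 ratio of 1.63 ± 0.23 (SE; adjusted p by edgeR = 4.11e-05). Fech, which inserts iron in the last step of heme synthesis, rose by 0.92 ± 0.27 on the log2 scale (SE; adjusted p by edgeR = 0.0313), a call lost without Tyrphostin 1, 2 or 5 (0.0556, 0.125 and 0.0817) or with no batch term (0.148). Sult1e1, the estrogen sulfotransferase, fell from a median of 6590 CPM (866 to 19500) to 1680 CPM (217 to 3610), a log2 ratio of -2.42 ± 0.43 (SE; adjusted p by edgeR = 0.000927), a call lost with no batch term (0.0591). Cyb5r3, the cytochrome b5 reductase, fell by 0.9 ± 0.16 on the log2 scale (SE; adjusted p by edgeR = 0.000631). Por, the electron donor of microsomal P450 enzymes, had -0.04 ± 0.21 (SE).

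**Figure D3:**
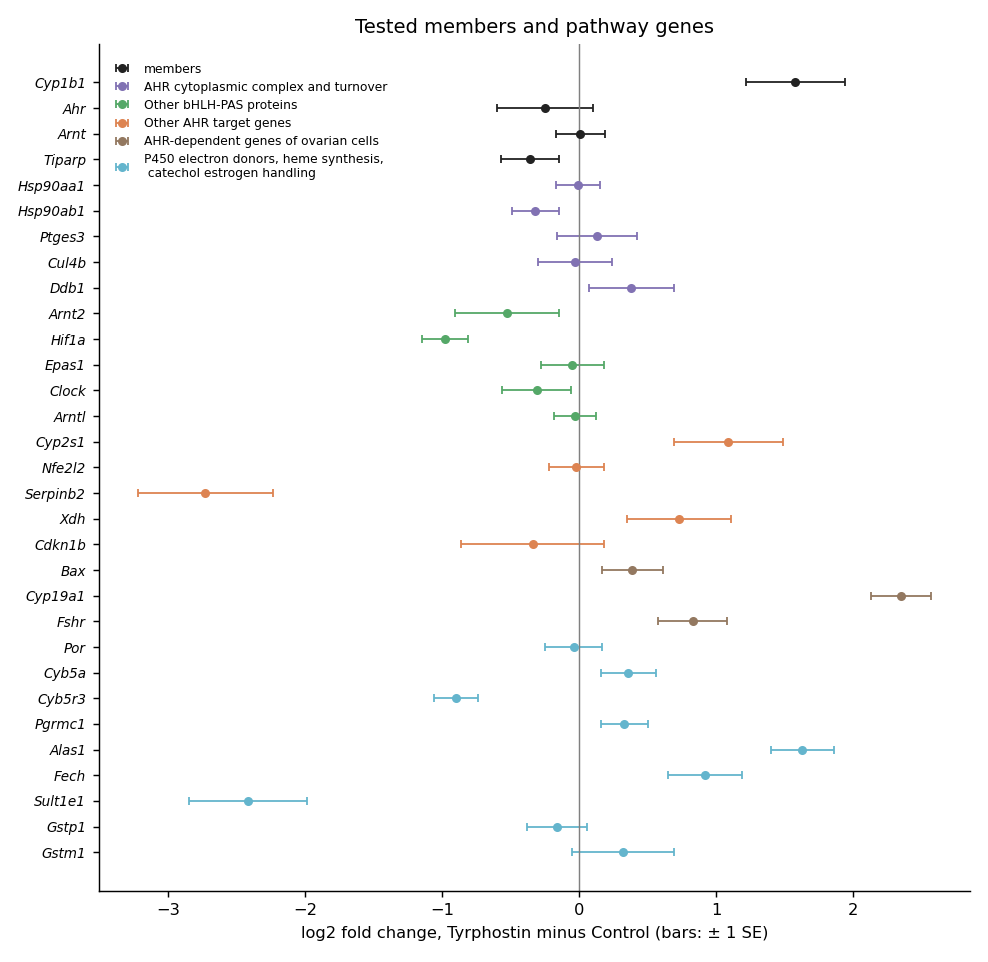
log2 fold change between Tyrphostin and Control libraries (horizontal axis, bars ± 1 SE, batch as a term) for the 4 tested members and 27 tested pathway genes, colored by list. Cyp1b1 stands at 1.58, with Cyp19a1 at 2.35 and Alas1 at 1.63 to its right, and Serpinb2 at -2.73 and Sult1e1 at -2.42 at the other end.

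The same 43 genes were also compared between the batches in Control libraries. Of the 24 tested, 3 were higher in batch 2 and 2 lower by edgeR, where 14.0% of all genes passed in either direction. Alas1 differed by 1.78 ± 0.27 (SE; adjusted p by edgeR = 0.000678), so its difference between Control batches was about as large as its difference between treatments. Gstm1 and Cyp19a1 were also higher (1.59 ± 0.47 and 0.91 ± 0.26, SE), and Sult1e1 and Hsp90ab1 lower (-1.95 ± 0.5 and -0.66 ± 0.21, SE). These genes were not checked in this comparison with single Control libraries left out, so whether a call rests on a single library was not tested.

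Cyp1b1 was then set beside the rest of the cytochrome P450 family. Of 92 other P450 genes in the table, 12 passed the filter, and the 80 that did not had at most 22 counts in a library. By the edgeR test 1 was higher, Cyp19a1, and 2 were lower, Cyp4f18 and Cyp4f16, both of a subfamily that hydroxylates fatty acids and eicosanoids. Over all genes 10.6% passed in either direction. Cyp4f18 averaged 19.5 CPM ± 10.1 (SD, n = 11) in Control but 7.01 CPM ± 3.84 (SD, n = 6) with the inhibitor, for a log2 ratio of -1.41 ± 0.33 (SE; adjusted p by edgeR = 0.00792). Cyp4f16 changed by -1.12 ± 0.36 (SE; adjusted p by edgeR = 0.0466), a call lost in 12 of 17 fits without 1 library (Control 2, 4, 5, 6, 8, 10 or 11, Tyrphostin 1, 2, 3, 4 or 6), with an adjusted p of up to 0.113. The steroid and sterol enzymes Cyp11a1, Cyp51, Cyp17a1 and Cyp11b1 had log2 values of 0.05 ± 0.37, 0.17 ± 0.26, 0.75 ± 0.55 and -0.64 ± 0.77 (SE).

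Among the genes whose pattern over the 17 libraries was most like that of Cyp1b1, once the mean of each group and batch was taken out, were Abhd4 (Pearson r = 0.94), Sh3bgrl3 (0.91), Gpx1 (0.91) and Birc3 (0.9), out of 6332 compared. These values describe likeness among libraries that share depth and cell makeup, and are the top of a search. None of these 4 passed the treatment test in edgeR (adjusted p from 0.0699 to 0.884), with log2 fold changes of 0.74 ± 0.26 for Abhd4, -0.59 ± 0.26 for Sh3bgrl3, 0.12 ± 0.35 for Gpx1 and -0.29 ± 0.31 for Birc3 (SE).

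**Figure D4:**
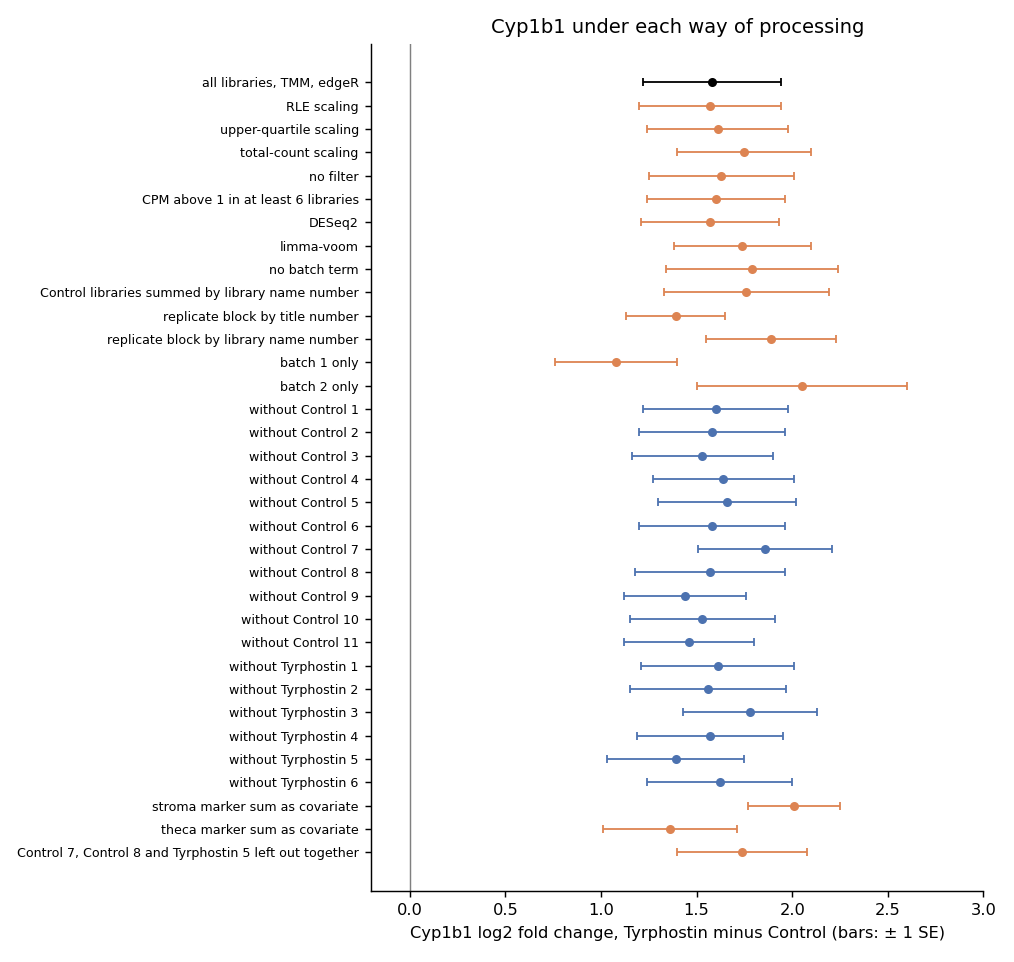
Cyp1b1 log2 fold change between Tyrphostin and Control libraries (horizontal axis, bars ± 1 SE) for the full analysis in black, for each alternative scaling, filter, tool, design or subset in orange, and with 1 library left out in blue. All values are positive, from 1.08 in batch 1 alone to 2.05 in batch 2 alone.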

How the data were processed

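Per the labels' protocols, RNA-SPRI beads were used to isolate RNA and Smart-Seq2, which has no molecular identifiers, to prepare the libraries. The deposited table holds the authors' raw counts by gene symbol in 17 libraries, and the submitters' processing notes name STAR, HTSeq and build GRCm38. Annotation, strand setting and filters are not given in the sources used here, so overlapping or antisense genes cannot be told apart. Of 25198 rows, 3576 held no count.

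The test was edgeR's (4.0.16, under R 4.3.3), with TMM factors after filterByExpr, a robust quasi-likelihood F test and Benjamini-Hochberg adjustment over all genes tested (threshold 0.05). Treatment was fitted over all libraries, adjusting for batch. The other fits were the interaction of treatment and batch, and batch within 11 Control libraries. A standard error is the log2 fold change over the square root of F. CPM use TMM-scaled totals, and log2 CPM a prior count of 2. Exon lengths came from GENCODE M21 and promoters from RefSeq. Named genes were all members, pathway genes past the threshold with up to 4 others per list, P450 genes past it with the 4 others of highest level, and the 5 genes most like Cyp1b1 with an average log2 CPM of at least 3. Some genes that this rule names are not reported here. Members and lists were chosen with earlier results of these data known. No library looked like a copy of another: over the 31 pairs sharing group and batch, chi-square divided by its degrees of freedom was 11.8 to 84.1. The code was tested on simulated counts. DESeq2 1.42.0, limma 3.58.1 (voom), other scalings, filters and designs, and omission of each library were alternatives. A pseudocount alternative meant for normalized values was not run.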

Additional observations from a re-analysis of the deposited data

Results flagged for a closer look

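Each member was searched in 17 groups of 5 or 6 libraries for a library far from the others, and 2 groups had one, where chance flags about 1 in 20. Cyp1a1 reached 0.809 CPM in Tyrphostin 5, which is 3 counts, against 0 to 0.195 CPM in the other Tyrphostin libraries. Ahrr reached 4.51 CPM in Control 5, which is 16 counts, against 0.27 to 1.09 CPM in the other Control libraries of batch 1.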

How the results depend on the processing

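The Cyp1b1 log2 fold change of 1.58 stayed positive in all 33 alternatives run, from 1.08 to 2.05, and in 17 fits without 1 library its lowest value was 1.39, with Tyrphostin 5 left out, and its highest 1.86, with Control 7 left out. The marker covariates and the joint omission of Control 7, Control 8 and Tyrphostin 5 were chosen after seeing the data. The count of genes changed, 1018, was 619 with no batch term, 634 in batch 1 alone and 61 in batch 2 alone. It was 708 with Control libraries summed by library name number, and 708 to 1314 without 1 library. The batch subsets and the summed set have fewer samples. In the summed set the Cyp1b1 log2 fold change was 1.76 ± 0.43 (SE). The count of pathway genes, 8, was 5 with no batch term and 1 in batch 2 alone. It was 6 with Control libraries summed, 2 higher and 4 lower, and 6 to 9 without 1 library. Scaling by total counts shifted the median log2 ratio over all genes from 0 to 0.15, and 64.4% of calls were then higher, against 41.1% with TMM. Among Control libraries, 937 genes differed between batches, 1473 by DESeq2 and 100 with libraries summed by library name number. There Cyp1b1 passed with no filter (0.86), and Tiparp, 0.13, ran from -0.03 to 0.31 without 1 Control library. The interaction gave 0 genes, and 79 with no filter. For Arnt the interaction of 0.05 was -0.04 with no filter, -0.03 with Control libraries summed and -0.22 to 0.22 without 1 library. Where no reason is given, the cause was not tested.

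Numbers 1 to 6 occur in the titles of both groups. Once group means were removed, the libraries that share a number correlated with r = 0.47, 0.31, 0.38, 0.01, -0.13 and -0.06. Numbers 1 to 3 join libraries of the same batch. Numbers 4 to 6 join a Control library of batch 1 to a Tyrphostin library of batch 2. Libraries that share a library name number (1, 2, 4, 5 and 6), all within a batch, had r = 0.49, 0.14, 0.32, -0.07 and 0.35. These values include the difference between batches. With batch means removed too, r was 0.03 to 0.32 by title number and -0.27 to 0.11 by library name number. Neither was taken as pairs. With a replicate block by title number, 636 genes and 4 pathway genes were called and Cyp1b1 had 1.39. Ahr had -1.07 there, past the threshold that its -0.25 without the block missed. In that fit the treatment value rests on title numbers 1 to 3, all of batch 1. Numbers 4 to 6 cross the batches, and higher Control numbers have no Tyrphostin partner. With a replicate block by library name number Cyp1b1 had 1.89. Genes with few counts, such as Cyp1a1 and Ahrr, are limited by depth.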
